A study of Rattus norvegicus with 3 samples.

Results

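The B lineage cells at P14 are 151 of the 5281 kept cells of the P14 rat cochlea library, and 151 of the 30641 kept cells of the whole series. They were chosen by measured values. A P14 cell with more than 500 and fewer than 5000 genes and under 25% of its UMIs (unique molecular identifiers, which count captured RNA molecules) on mitochondrial genes was a member if it held at least 2 UMIs of the rule genes and at least 8 of them per 10000 UMIs. The rule genes named were Cd79a, Cd79b, Pax5 and Ms4a1, and 3 of these 4 symbols are listed in the matrix. Cd79a is not listed. The listed symbol Cd79al had 0 UMIs in the kept cells of all 3 libraries.

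The series holds 1 single-cell library each from the cochlea of untreated Sprague-Dawley rats at P1, P7 and P14 (postnatal days 1, 7 and 14), each made from pooled animals. The cochlear basal membrane was dissociated, red blood cells were lysed and dead cells were removed before capture with 10x Genomics 3′ chemistry. The labels give greater epithelial ridge cells as the cell type, the tall epithelium beside the inner hair cells of the young cochlea. The libraries contain many other cell types, and the members had 0 UMIs of the epithelial keratin gene Krt18, 4 of Epcam and 2 of Cdh1.

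B lymphocytes form after birth mainly in bone marrow, where a progenitor assembles its immunoglobulin genes step by step. The recombinase made of Rag1 and Rag2 cuts and joins the gene segments, and Dntt (terminal deoxynucleotidyl transferase) adds bases at the heavy chain joints. A finished heavy chain, encoded by Ighm, is displayed with the surrogate light chain, made of Igll1 and a VpreB protein, and with the signalling pair Cd79a and Cd79b. This pre-B cell receptor starts a burst of division, after which the cells leave the cycle and rearrange a light chain gene. A mature B cell carries a complete receptor, Ms4a1 (CD20) and MHC class II, and a plasma cell secretes antibody. The cochlea is enclosed by bone, and macrophages are its best known resident immune cells.

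In practice the rule rested on Cd79b. Of the 532 rule UMIs in the members, 513 (96.4%) were Cd79b, 12 were Ms4a1 and 7 were Pax5. All 151 members held Cd79b, and 138 held no UMI of the other rule genes. Pax5, the transcription factor that commits cells to the B lineage, was found in 7 members, and Ms4a1 in 6. All 12 Ms4a1 UMIs of the kept P14 cells lay in members, as did 7 of the 24 Pax5 UMIs. The members held a median of 1972 UMIs (lowest 713, highest 9816) and 1011 genes, against medians of 1607 UMIs and 862 genes in the other 5130 kept P14 cells. No caller was run to remove doublets, droplets that hold more than 1 cell, so such droplets may be among the members.

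Cells on both sides of the level limit held Ighm, which the rule did not use. Just inside it, 25 members had 8.18 to 9.96 rule UMIs per 10000, and 23 of them (92%) held Ighm, at 2090 CPM (UMIs per 1000000 UMIs). Just outside it, 17 cells had 6.14 to 7.96 per 10000, and 16 of them (94.1%) held Ighm, at 1682 CPM. In all, 69 cells with 2 or more rule UMIs fell under the limit. Their median depth was 5384 UMIs, 68 of them held Ighm, and 65 (94.2%) carried 2 or more UMIs of the division genes described below. A further 163 cells held 1 rule UMI. Of these, 44 were at or over the level limit, with a median of 950.5 UMIs and Ighm in 79.5%, and 119 were under it, with a median of 3025 UMIs and Ighm in 73.1%. Of the 44 cells, 1 (2.27%) carried 2 or more division-gene UMIs, and of the 119 cells 76 (63.9%) did. The members are thus the Cd79b cells with high Cd79b for their depth. The level limit left out mostly deep dividing cells. The limit of 2 rule UMIs also left out the 44 shallow cells, which were mostly not dividing.

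**Figure D1:**
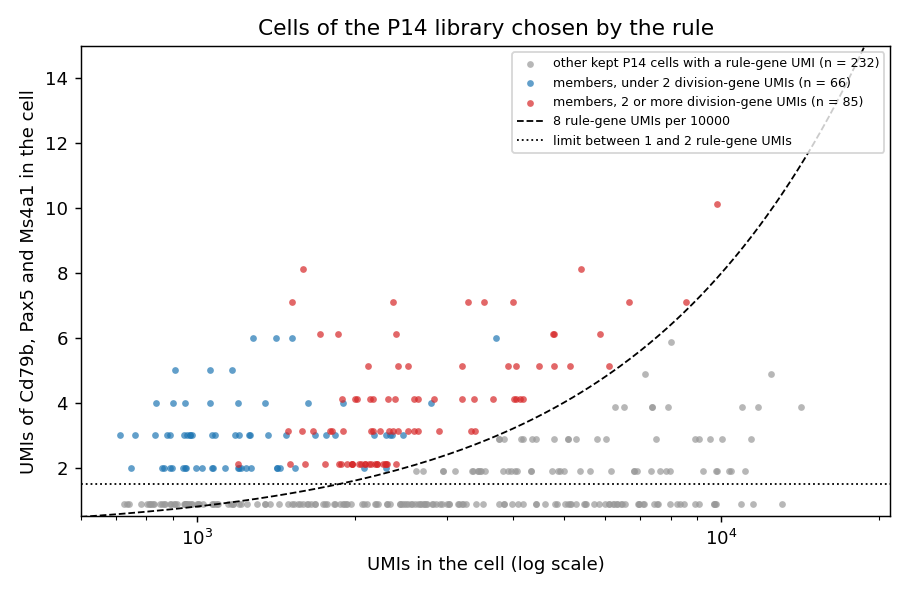
Each point is a kept P14 cell with at least 1 UMI of Cd79b, Pax5 or Ms4a1, plotted by all its UMIs (log scale) and its rule-gene UMIs, with small vertical offsets between the sets. The 151 members lie on or above the dashed line of 8 per 10000 and above the dotted line, and the 85 members with 2 or more division-gene UMIs (red) had a median of 2313 UMIs against 1188 in the other 66 (blue).

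The same rule found 6 cells among 12779 kept at P1 and 0 among 12581 kept at P7, which allows a share of up to 0.0239% at P7. The share at P14 was 2.86% (exact 95% interval 2.43 to 3.34), and at P1 it was 0.047% (0.0172 to 0.102). These intervals, and all others given here, cover counting error only, and with 1 library a stage, stage and library cannot be told apart. P14 was also much shallower, with a median of 1614 UMIs against 6565 at P1 and 6878 at P7, and a fixed level limit asks more UMIs of a deep cell. After every kept cell was thinned to 1000 UMIs by random draws, which left out 37, 193 and 735 shallower cells at P1, P7 and P14, the rule found 4 of 12742, 0 of 12388 and 69 of 4546 cells. The thinned P14 share was 1.52% (1.18 to 1.92).

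Levels over all kept cells do not depend on the cell rule. Cd79b stood at 1.31 CPM at P1, 1.04 at P7 and 72.3 at P14. Ighm stood at 1.68, 0.634 and 226 CPM, and Igll1 at 0.0306, 0.0967 and 155 CPM. Pax5 had 0 UMIs at P1 and at P7 and 24 at P14. Each of these genes was highest at P14. Lists of many other cell types were also highest at P14. The osteoblast list summed to 30.2, 51.3 and 2415 CPM at P1, P7 and P14, the erythroid list to 771, 1562 and 3689 CPM, and the neutrophil lineage list to 188, 14.5 and 395.5 CPM. The endothelial list summed to 118, 143 and 955 CPM, the fibrocyte and fibroblast list to 950, 2352 and 11902 CPM, and the glia list to 1215, 5092 and 7242 CPM. The macrophage list did not follow them, with 278, 179 and 274 CPM, nor did the epithelium list, with 45.5, 63.4 and 50.1 CPM. The part of tissue sampling in the rise of the B lineage genes was not tested.

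The 6 P1 cells held a median of 2410 UMIs and all had Ighm, with 102 UMIs in sum. They had Rag1 in 3 cells and Rag2 in 2, but no UMI of Igll1, Vpreb1, Vpreb2 or Dntt. Division genes reached 2 UMIs in 1 of them. The 3 libraries shared few cell barcodes. P7 and P14 had 19 kept barcodes in common (0.36% of the kept P14 cells) and P1 and P14 had 16 (0.303%). P1 and P7 had 53 (0.421% of the kept P7 cells). Of the barcodes of the 151 members, 3 also occurred at P7 and 0 at P1.

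The name B lineage was checked with 18 B lineage genes outside the rule, all of which are listed in the matrix. Together they summed to 5991 CPM in the members (5731 to 6259) and 983 CPM in the other kept P14 cells. Of the 16 that had at least 20 UMIs over the kept P14 cells, 15 stood 2-fold or more higher in the members and 0 stood 2-fold or more lower. Their median log2 ratio (10 CPM added to both sides) was 2.81, and over all 12567 genes with 20 UMIs it was -0.24. Across those 12567 genes, 7.25% were 2-fold or more higher in the members and 16.8% were 2-fold or more lower. These shares also stand beside the later list counts against the other P14 cells. The members were chosen in this same contrast, so these counts describe them and test nothing.

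Vpreb3, which assists the assembly of the receptor in B cell precursors, stood at 302 CPM in the members (246 to 367) and 12 CPM in the other cells. Blnk, the adaptor that carries the receptor's signal, stood at 482 CPM against 44.2 CPM, and was found in 86 members. Cd72, a B cell surface receptor, stood at 329 CPM against 22.8 CPM, and Fcrla at 461 CPM against 30.1 CPM. Spib, an Ets family transcription factor of B cells, stood at 320 CPM against 19 CPM, and Pou2af1, a coactivator of immunoglobulin genes, at 284 CPM against 23 CPM. Ebf1, a founding factor of the B cell programme, was found in 124 members at 984.5 CPM, but the other cells held it at 430 CPM and endothelial cells at 313 CPM, so it did not mark the members alone. Ly6d had 0 UMIs in the members and in the other cells.

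Free RNA in the droplets gives UMIs to cells that do not make a gene, so a cell type that should lack these genes was read beside the members. In 1213 P14 cells with endothelial markers, Ighm was found in 3.22% of cells at a median depth of 1347 UMIs, against 94% of members at 1972 UMIs. At equal depth, after thinning to 1000 UMIs, Ighm was found in 102 of 128 members (79.7%) and in 24 of 865 endothelial cells (2.77%). Cd72 was found in 25% and 0.231%, Blnk in 28.9% and 0.578%, and Vpreb3 in 30.5% and 0.462% of the thinned cells. Lef1 was an exception, with 14.8% of members and 19.5% of endothelial cells, but these endothelial cells held it at 227 CPM, against 39.6 CPM in macrophages, so they are a poor measure of its background.

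Promoter windows from RefSeq (build GRCr8, 250 bases before to 50 bases after the start) were at hand for 13 of these 18 genes. The octamer ATGCAAAT, a motif known from immunoglobulin promoters, was searched on both strands and occurred in 2 of the 13, Blnk and Vpreb3, and in 595 (1.78%) of all 33469 windows. Both windows are shown because they alone of the 13 hold the octamer, given here (as its reverse complement ATTTGCAT) in capitals.
Vpreb3, chr20:12718177-12718476, minus strand: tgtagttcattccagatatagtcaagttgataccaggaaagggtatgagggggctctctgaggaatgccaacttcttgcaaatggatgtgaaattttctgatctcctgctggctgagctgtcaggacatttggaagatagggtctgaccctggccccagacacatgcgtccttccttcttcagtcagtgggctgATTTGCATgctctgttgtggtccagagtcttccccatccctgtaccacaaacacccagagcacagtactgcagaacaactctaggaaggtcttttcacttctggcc
Blnk, chr1:249770484-249770783, minus strand: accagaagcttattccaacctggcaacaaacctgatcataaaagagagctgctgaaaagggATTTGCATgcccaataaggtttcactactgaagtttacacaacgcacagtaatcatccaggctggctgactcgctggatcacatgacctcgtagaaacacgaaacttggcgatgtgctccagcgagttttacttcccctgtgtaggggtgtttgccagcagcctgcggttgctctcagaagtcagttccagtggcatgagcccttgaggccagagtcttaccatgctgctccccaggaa
CCCNNGGG, the core of the motif known for Ebf1, occurred in 2 of the 13 (Spib and Bank1) and in 12.4% of all windows, and CAGCTG, an E-box, in 2 of the 13 and in 15.1%. A match is a description of letters and not evidence of binding. The strings were picked with the matches known.

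**Figure D2:**
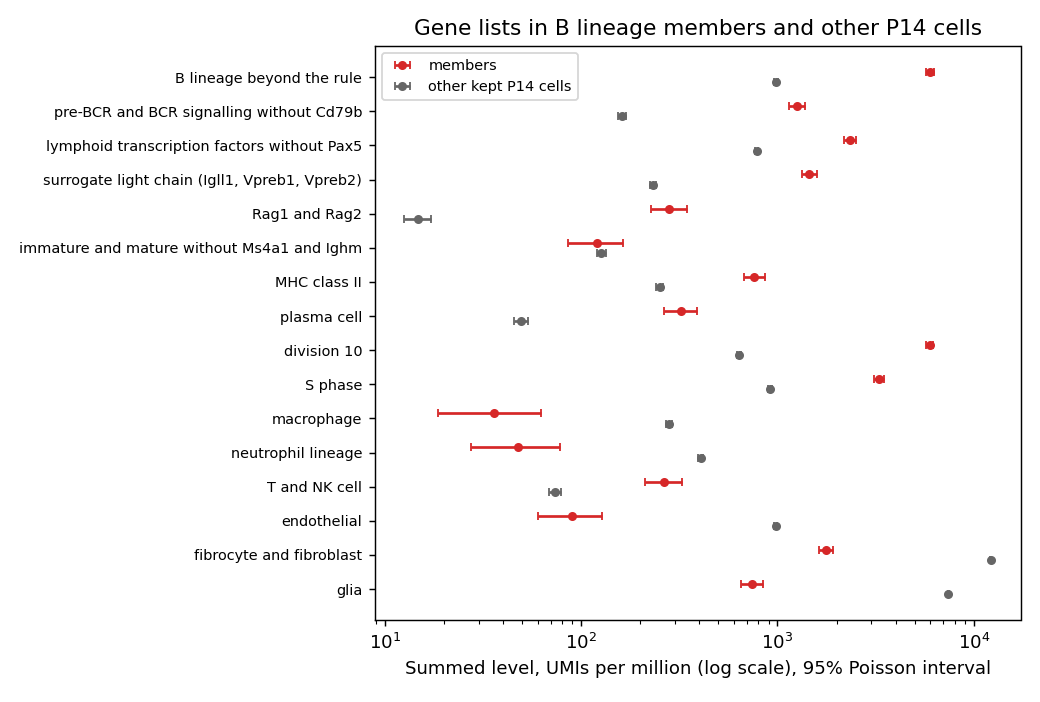
Summed level of each gene list in the 151 members (red) and the other 5130 kept P14 cells (grey), in CPM on a log scale, with exact 95% Poisson intervals. B lineage, receptor signalling (without Cd79b), recombinase, division and T and NK cell lists stood higher in the members, and macrophage, neutrophil, endothelial, fibrocyte and glia lists stood lower.

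The genes that led the members by ratio, among those with a UMI in at least 10% of members, joined lineage and division genes. After Cd79b itself (1535 CPM against 29.1) came 3 loci that carry only clone names, AABR07060872 (1921 CPM against 73.7), AABR07034739 (1358 against 54.4) and AABR07002700 (781 against 41.1). AABR07034739 is a symbol listed more than once. What these loci encode was not resolved here, and they may be immunoglobulin loci. Ighm followed Vpreb3 with 2358 CPM (2196 to 2528) against 163 CPM, and was found in 142 of the 151 members. Among the first 20 were also the cytokine receptor gene Il21r (326 CPM against 17.4), Tifa (981.5 against 84.6), Pkib (646 against 47.8) and Dus2 (290 against 15.1). The division genes there were Cenpf, Cdkn3, Top2a and E2f2, with Hmgb2, a chromatin protein of dividing cells, at 14830 CPM against 1458 CPM. By sheer abundance LOC100359583 came first, with 20042 CPM against 4432 CPM, and AC134224 second, with 19656 CPM against 67780 CPM.

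Genes of the progenitor and precursor stages were abundant in the members. Of the 15 genes of this list 13 are listed in the matrix (Il7r and Sox4 are not), and they summed to 818 UMIs, 2448 CPM (2283 to 2621), against 565 CPM in the other cells. Of the 13, 8 stood 2-fold or more higher and 1, Kit, 2-fold or more lower, with a median log2 ratio of 2.05. A UMI of the list was found in 116 members.

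The surrogate light chain led the list. Igll1 had 335 UMIs in 55 members, 1002 CPM against 130 CPM in the other cells. Vpreb2 had 103 UMIs in 29 members, 308 CPM against 75.3 CPM, and Vpreb1 had 48 UMIs in 23 members, 144 CPM against 27.1 CPM. Levels were lower in the cells with no rule UMI, at 46 CPM for Igll1, 30.3 CPM for Vpreb2 and 8.2 CPM for Vpreb1. The partners occurred in the same cells, since 20 of the 23 Vpreb1 members and 26 of the 29 Vpreb2 members also held Igll1, which was found in 36.4% of all members. The recombinase genes were spread more thinly. Rag1 had 57 UMIs in 38 members (171 CPM against 9.29) and Rag2 had 37 UMIs in 27 members (111 CPM against 5.39). Dntt had 32 UMIs in 15 members, and 14 of these 15 held Igll1 and 12 held Ighm.

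Genes known from early progenitors differed among themselves. Cd34 had 0 UMIs in the members, which allows up to 8.98 CPM, and Flt3 had 1 UMI. Kit, the stem cell factor receptor, stood at 32.9 CPM in the members and 118 CPM in the other cells. Myb, a transcription factor of blood progenitors, stood at 185.5 CPM against 21.8 CPM, and Arpp21, a gene of lymphoid precursors, at 144 CPM against 11.1 CPM.

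The list of immature and mature stages summed to 2478 CPM in the members (2312 to 2652) with Ms4a1 left out, but Ighm made up 788 of its 828 UMIs. Ighm is transcribed from the precursor stage on. Without it the list summed to 120 CPM (85.5 to 163) in the members and 126 CPM in the other cells. Fcer2, Cxcr5, Ccr7 and Ltb, genes of mature and recirculating B cells, had 0 UMIs in the members, but the other cells held at most 2 UMIs of each, so these zeros say little about the members. Tnfrsf13c, the receptor for the survival factor BAFF, had 14 UMIs in 11 members, 41.9 CPM against 2.65 CPM, and Cr2 had 6 UMIs in 4 members. S1pr1, needed for exit into the blood, stood at 35.9 CPM in the members and 110 CPM in the other cells. Ighd, Igkc and Iglc1 to Iglc3 are not listed in the matrix, so light chain and IgD could not be read by symbol, and the clone-named loci above may include such genes.

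Plasma cell genes gave a mixed count. Sdc1 and Tnfrsf17 had 0 UMIs in the members, which allows up to 8.98 CPM. The other cells held 4.78 CPM of Sdc1 and 1 UMI of Tnfrsf17, so these zeros say little about the members. Prdm1 had 1 UMI in the members (2.99 CPM against 2.65) and Xbp1 had 5 (15 CPM against 11.7). Mzb1, a folding factor of the secretory pathway also made by other B cells, had 73 UMIs in 51 members (218 CPM against 17) and Irf4 had 21 UMIs in 19 members. Jchain had 8 UMIs (23.9 CPM against 7.43). Of 7 switched isotype genes only Ighg1 is listed, with 0 UMIs in the members and in the other cells.

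A UMI of the MHC class II list was found in 62 members, but Cd74, the invariant chain, lay in few of them, with 118 UMIs in 16 of the 151 members. These 16 members, set apart after their values were seen, all held Ighm, at 3498 CPM against 2225 CPM in the 135 members without Cd74. They held 0 UMIs of Igll1 and of Vpreb1 and 1 of Vpreb2, while 55 of the 135 held Igll1, at 1119 CPM. All 6 Ms4a1 members were among the 16. Division genes reached 2 UMIs in 4 of the 16 and in 81 of the 135. Their median depths were close, at 1864 and 1976 UMIs. The 16 held 18 UMIs of RT1-Da, and the 135 held 1. The 7 macrophage genes, whose cells also express class II, had 0 UMIs in the 16. RT1-Db1 was spread more widely, in 9 of the 16 at 631 CPM and in 45 of the 135 at 271 CPM.

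Genes of the receptor's signalling path were present as a group. Of 13 genes on this list 12 are listed in the matrix. Without the rule gene Cd79b, whose level the choice of members set, 10 of 11 stood 2-fold or more higher in the members and 0 stood 2-fold or more lower, with a median log2 ratio of 1.84. Syk, the kinase that docks on Cd79b, stood at 162 CPM against 14.5 CPM. Lyn, which phosphorylates the receptor, stood at 174 CPM against 34.6 CPM, and Blk, its B cell relative, at 95.7 CPM against 8.76 CPM. Btk (13 UMIs), Plcg2 (6 UMIs) and Vav1 (5 UMIs) were sparse.

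Of 13 lymphoid transcription factors, with the rule gene Pax5 left out, 9 stood 2-fold or more higher and 1 lower, with a median log2 ratio of 1.73. Tcf3, the E protein that acts with Ebf1, stood at 410 CPM against 71.7 CPM. Bcl11a, required for B lymphopoiesis, stood at 150 CPM against 16.6 CPM, and Ikzf3 at 56.9 CPM against 3.8 CPM. The gene that stood lower was Irf8, with 1 UMI in the members, 2.99 CPM against 22.9 CPM.

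Division was common among the members. A cell was called dividing if it held 2 or more UMIs of 10 genes of chromosome condensation, mitosis and its control. These were the kinases Cdk1 and Aurkb, the cyclins Ccna2 and Ccnb1, the spindle and chromosome genes Birc5, Cenpf, Nusap1 and Top2a, with Ube2c and Mki67. After thinning to 1000 UMIs, 82 of 128 members were dividing, a share of 64.1% (55.1 to 72.4), and 23 shallower members were left out. The same share was 5.8% (2.54 to 11.1) in 138 cells with macrophage markers, 32.1% (22.4 to 43.2) in 84 neutrophil lineage cells and 5.75% (5.08 to 6.48) in 4418 other kept P14 cells. In 865 endothelial cells it was 1.27% (0.636 to 2.26). At 1000 UMIs the interval of the members lay above those of the other sets. The shallowest dividing member held 1197 UMIs, so the 23 members left out were all not dividing. Of the neutrophil lineage cells, 1 was left out. The cells left out are counted in the shares without thinning. The members' share was 41.1% after thinning to 500 UMIs. With a level limit of 16 per 10000 it was 45.5%. Without thinning the shares were 56.3% of 151 members, 9.62% of macrophages, 62.35% of neutrophil lineage cells, 2.14% of endothelial cells and 7.82% of the other cells. The neutrophil lineage share moved most between 1000 UMIs and no thinning, and its cells were the deepest, with a median of 4679 UMIs.

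The members split sharply. As deposited, 63 held 0 of the division UMIs, 3 held 1 and 85 held 2 or more, with up to 83 in a cell. The split followed depth within the members. Of the 38 shallowest members (713 to 1204 UMIs) 1 was dividing. Of the next 37 in depth 17 were dividing, of the next 38 it was 32, and of the 38 deepest (2417 to 9816 UMIs) it was 35. Whether the dividing cells hold more RNA or are only better sampled was not tested.

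**Figure D3:**
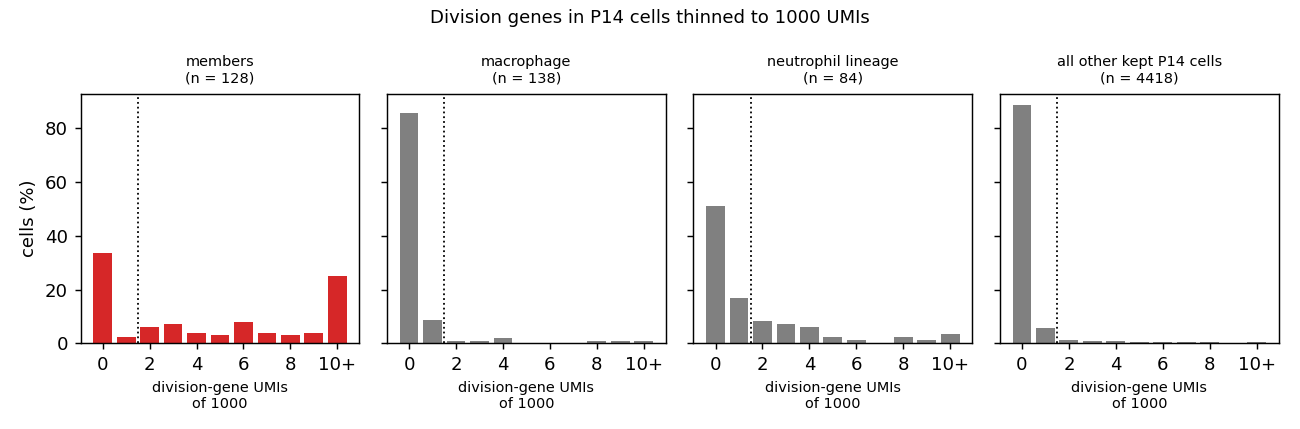
Share of cells (%) by the number of UMIs of the 10 division genes among 1000 drawn UMIs, with 10 or more in the last bar, and a dotted line between 1 and 2. Members (red, 128 cells) had 64.1% of cells at 2 or more, against 5.8% of macrophages, 32.1% of neutrophil lineage cells and 5.75% of all other cells.

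All 10 division genes stood 2-fold or more higher in the members than in the other cells, and summed to 5958 CPM (5699 to 6225) against 640 CPM. Mki67, the usual marker of cycling cells, stood at 820 CPM in 74 members, against 89.3 CPM. Top2a, which untangles chromosomes, stood at 1146 CPM against 107 CPM, and Ube2c, which helps to end mitosis, at 978.5 CPM against 104.5 CPM. All 25 listed genes of the G2 and M phase list were 2-fold or more higher, with a median log2 ratio of 2.63. Of 19 S phase genes that passed the filter, 15 were 2-fold or more higher, with a median log2 ratio of 1.46. The S phase gene Dut stood at 1338 CPM against 313 CPM, Slbp, which binds histone messages, at 377 CPM against 94.4 CPM, and Pcna, the sliding clamp, at 287 CPM against 125 CPM. At 1000 UMIs, 2 or more UMIs of the S phase list were found in 53.9% of members and of the G2 and M phase list in 64.8%, against 9.62% and 6.86% of the other cells. All 11 listed chromatin and tubulin genes were 2-fold or more higher. The free RNA share is low here too, with Mki67 in 43.8% of thinned members and 1.5% of thinned endothelial cells.

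The division genes also share promoter letters. Windows were at hand for 22 of the 26 genes of the G2 and M phase list. TTTGAA, the letters of the cell cycle homology region known from such promoters, occurred on either strand in 16 of the 22 (72.7%) and in 18.3% (6140) of all 33469 windows. CCAAT occurred in 18 of the 22 (81.8%) and in 37.5% of all windows. In the 17 S phase genes with a window the counts were 3 and 10, and in the 13 B lineage genes they were 1 and 4. The windows of Top2a and Cdk1 are shown as members of the list that move together, with TTTGAA and CCAAT or their reverse complements TTCAAA and ATTGG in capitals.
Top2a, chr10:84473044-84473343, minus strand: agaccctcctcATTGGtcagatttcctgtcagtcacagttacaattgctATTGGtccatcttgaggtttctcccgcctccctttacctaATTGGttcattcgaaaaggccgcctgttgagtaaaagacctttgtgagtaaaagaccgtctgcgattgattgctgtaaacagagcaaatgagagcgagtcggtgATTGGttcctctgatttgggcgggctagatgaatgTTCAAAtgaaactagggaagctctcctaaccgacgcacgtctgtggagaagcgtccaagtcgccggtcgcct
Cdk1, chr20:19265043-19265342, plus strand: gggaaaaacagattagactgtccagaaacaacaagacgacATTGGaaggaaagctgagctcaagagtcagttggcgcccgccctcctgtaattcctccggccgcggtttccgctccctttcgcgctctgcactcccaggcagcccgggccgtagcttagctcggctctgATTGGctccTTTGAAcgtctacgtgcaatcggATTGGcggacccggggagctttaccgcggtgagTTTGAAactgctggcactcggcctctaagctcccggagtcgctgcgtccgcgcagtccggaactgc
Top2a held 1 match of TTTGAA and 4 of CCAAT, and Cdk1 held 2 and 3.

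The genes that drive or brake the cycle went both ways. Of 16 listed genes, 6 stood 2-fold or more higher in the members and 3 stood 2-fold or more lower. Over all 12567 genes the shares were 7.25% and 16.8%, so the lower count was near its share. Among the D cyclins, Ccnd3 stood at 233 CPM against 71.6 CPM, Ccnd2 had 5 UMIs and Ccnd1 had 1, which is 2.99 CPM against 34.1 CPM. Of the 78 Ccnd3 UMIs 76 lay in dividing members, but at 1000 UMIs it was found in 18.3% of dividing members (10.6 to 28.4) and 6.52% of the others (1.37 to 17.9), and these intervals overlap. E2f2 stood at 314 CPM against 22.9 CPM. Myc had 3 UMIs, 8.98 CPM against 32.9 CPM, and Mycn had 0. The brake Cdkn1a had 1 UMI against 44.8 CPM in the other cells, while Cdkn2c had 34 UMIs, all in dividing members. Cdkn1b stood at 182.5 CPM in the members (140 to 234.5) and 192 CPM in the other cells.

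The stage genes were then set out in the 85 dividing members (246159 UMIs) and the 66 others (88034 UMIs). Division genes took no part in choosing the members. The level limit did leave out 69 cells with 2 or more rule UMIs, of which 65 were dividing. The limit of 2 rule UMIs left out 44 cells at or over the level limit, of which 1 was dividing. Rag1 stood at 81.2 CPM (49.6 to 126) in the dividing members, with 20 UMIs in 14 cells, and at 420 CPM (296 to 579) in the others, with 37 UMIs in 24 cells. Dntt stood at 48.8 CPM (25.2 to 85.2) and 227 CPM (139 to 351). Vpreb3 stood at 203 CPM (151 to 268) and 579 CPM (431 to 762), and Vpreb2 at 211 CPM (158 to 277) and 579 CPM (431 to 762). For these genes the intervals of both classes did not overlap, and the level was lower in the dividing members. The sizes of the Vpreb2 and Vpreb3 differences depended on the level limit. The Vpreb2 log2 ratio was -1.46 in the members and -0.84 with the cells under the limit added, while the Vpreb3 difference became larger. Rag2 stood at 97.5 CPM (62.5 to 145) and 148 CPM (78.6 to 252.5), and Vpreb1 at 150 CPM (106 to 207) and 125 CPM (62.4 to 224), with intervals that overlapped. Igll1 stood at 922 CPM (806 to 1050) and 1227 CPM (1006 to 1481), also with overlap, at a ratio of 0.752 (0.595 to 0.954). Ighm stood at 2372 CPM (2184 to 2573) and 2317 CPM (2010 to 2658).

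**Figure D4:**
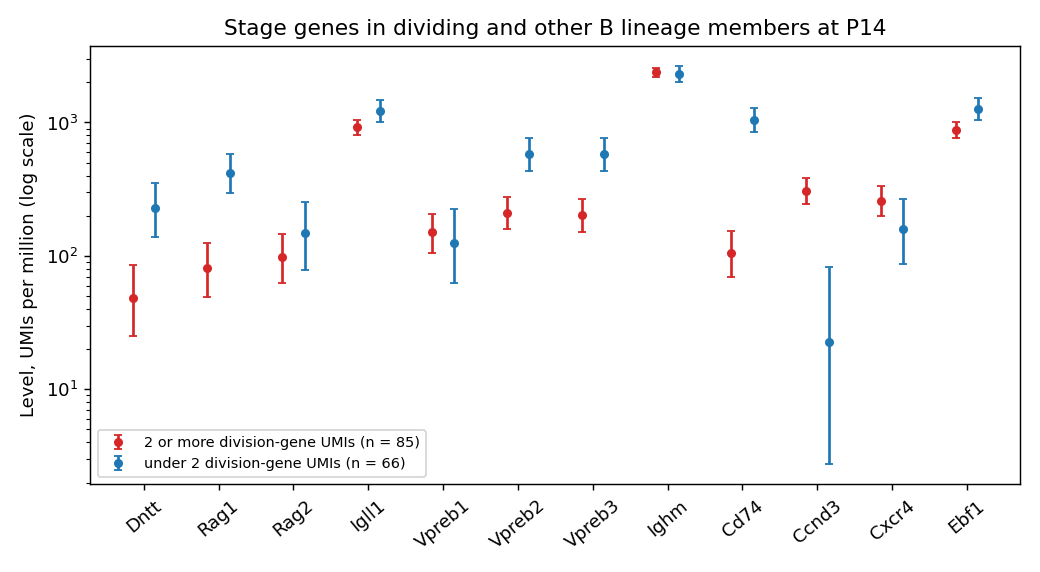
Level of stage and cycle genes (CPM, log scale, exact 95% Poisson intervals) in the 85 dividing members (red) and the 66 other members (blue). Rag1, Dntt, Vpreb2, Vpreb3 and Cd74 stood lower in dividing members, Ccnd3 stood higher, and the Ighm intervals overlap.

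As a ratio of dividing to other members, Rag1 and Rag2 together stood at 0.315 (0.205 to 0.482), the surrogate light chain genes at 0.665 (0.55 to 0.806) and Vpreb3 at 0.351 (0.233 to 0.528). The whole precursor list stood at 0.545 (0.473 to 0.629). In the precursor list 9 genes had at least 20 UMIs in the members, and 0 were 2-fold or more higher in dividing members and 4 were 2-fold or more lower. Over the 2595 genes with 20 UMIs in the members, 16.2% were 2-fold or more higher in dividing members and 9.06% were 2-fold or more lower. With 10 CPM added to both sides, as for these counts, the median log2 ratio was -0.82 in the precursor list and 0.05 over all 2595 genes. B lineage genes outside the rule did not share this difference, with 5878 CPM in dividing members and 6304 CPM in the others.

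At equal depth the shares ran the same way as the levels for the stage genes named above except Vpreb1, which was found in 9.76% of dividing members and 10.9% of the others. Among members thinned to 1000 UMIs, Rag1 was found in 7 of 82 dividing members (8.54%, 3.5 to 16.8) and 9 of 46 others (19.6%, 9.36 to 33.9). Dntt was found in 2 of 82 (2.44%) and 9 of 46 (19.6%), and Vpreb3 in 22% (13.6 to 32.5) and 45.6% (30.9 to 61). Igll1 was found in 24.4% (15.6 to 35.1) and 45.7% (30.9 to 61). Vpreb2 was found in 12.2% (6.0 to 21.3) and 26.1% (14.3 to 41.1). The separate intervals of both classes overlap for Rag1, Rag2, Vpreb1, Vpreb2, Vpreb3, Igll1 and Ighm, and stay apart for Dntt.

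Genes of other cochlear cells moved with the same split. The 7 fibrocyte and fibroblast genes summed to 654 CPM in the dividing members and 4884 CPM in the others, against 12202 CPM in the other kept P14 cells, and their most abundant gene Coch stood at 219 and 2283 CPM. All 7 had UMIs in the members, and 5 members held 49.4% of the list's UMIs there. The 10 genes that stood lowest in dividing against other members were Dnase1, Wnt5a, Pltp, Apod, Spp1, Col15a1, Col3a1, Sparcl1, Coch and Dcn, and 9 of these stood lower in the members than in the other kept P14 cells, the exception being Dnase1. With every member that met the marker limit of another lineage removed, 41 dividing and 24 other members remained. The fibrocyte list then summed to 268 and 523.5 CPM, Rag1 and Rag2 to 167 (106 to 250) and 711 CPM (428 to 1110), and the surrogate light chain to 1247 (1068 to 1448) and 3552 CPM (2874 to 4343).

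The 10 genes that stood highest in dividing members were Hist1h2an, Top2a, Ube2c, Birc5, Cenpf, Mki67, Nusap1, Pclaf, Cks1b and Tpx2, of which 6 are among the 10 that set the classes. Hist1h2an, a replication histone gene whose symbol is listed more than once, had 865 UMIs in dividing members and 0 in the others. Pclaf, a partner of the sliding clamp, had 112 and 0. The Hist1h2an level in dividing members, 3514 CPM, was 103 times the limit of 3 counts in the others, 34.1 CPM. Of the genes outside division, Tcf3 stood at 467 CPM (386 to 561) in dividing members and 250 CPM (157 to 378) in the others, and Btg1, a gene of quiescent cells, at 630 CPM (534 to 737) and 1352 CPM (1120 to 1618).

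By stage genes the members fell into classes. A UMI of the precursor genes Dntt, Rag1, Rag2, Igll1, Vpreb1 or Vpreb2 without any of the mature genes Ms4a1, Cr2 and Fcer2 was found in 85 members (56.3%). Mature genes alone were found in 5 members, both kinds in 5 and neither in 56 (37.1%). The dividing share was 57.6% (46.4 to 68.3) in the precursor class and 55.4% (41.5 to 68.7) in the class with neither, and the intervals overlap. In the mature class 1 of 5 members was dividing, and in the class with both kinds 4 of 5 were. A member with no UMI of these genes may still express them, since the class without them had a median depth of 1895 UMIs.

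The members were also split by recombinase and surrogate light chain genes alone, after their values were seen. Members with a surrogate light chain UMI and no recombinase UMI numbered 35, and 26 of them were dividing (74.3%, 56.7 to 87.5). Members with both numbered 26, with 12 dividing (46.2%, 26.6 to 66.6), and members with recombinase alone numbered 29, with 15 dividing (51.7%, 32.5 to 70.5). In the 15 Dntt members 5 were dividing. The intervals of these classes overlap.

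Signals that precursor B cells need were read in the rest of the library. Cxcl12, the chemokine that holds B cell precursors in the marrow, stood at 272 CPM in the other P14 cells and 1124 CPM in the endothelial cells, and had 7 UMIs in the members. Its receptor Cxcr4 was found in 54 members, at 233 CPM (185 to 291) against 37.8 CPM in the other cells. Vcam1, the adhesion ligand, stood at 328 CPM in the other cells, and Itga4, a subunit of its receptor, at 41.9 CPM in the members against 6.99 CPM. Kitlg stood at 98.8 CPM in the other cells. Il7, the main growth factor of rodent B cell precursors, had 0 UMIs in members and other cells alike, Tslp had 1 UMI in the members, and Il7r is not listed in the matrix, so that pair could not be read. Of 5 ligands that passed the filter, 0 were 2-fold or more higher in the members and 4 were 2-fold or more lower. Over all 12567 genes 7.25% were higher and 16.8% lower.

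Lists of most other lineages stood lower in the members than in the other cells. The T and NK cell list stood higher, at 263 CPM against 73.4 CPM, led by Cd3g (171 CPM against 22.7), and 10 members met its marker limit. The 7 macrophage genes summed to 35.9 CPM against 281 CPM in the other cells, with C1qb the most abundant at 3 UMIs. The 8 neutrophil lineage genes summed to 47.9 CPM against 406 CPM, with Mpo the most abundant at 7 UMIs and Ngp, Ltf, Camp and Prtn3 at 0. The erythroid list summed to 293 CPM against 3789 CPM, led by Hba-a2, with Alas2 and Hemgn at 0. The endothelial list summed to 89.8 CPM against 980 CPM, led by Cldn5, with Kdr at 0. The plasmacytoid dendritic list summed to 95.7 CPM against 138 CPM, with Siglech and Cd209a at 0. The osteoblast list summed to 129 CPM against 2483 CPM, led by Bglap, with Sp7 and Runx2 at 0, and the epithelium list to 17.9 CPM against 51 CPM.

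Glia genes summed to 742 CPM in the members against 7434 CPM in the other cells. In all, 86 members held 2 or more UMIs and 8 per 10000 of at least 1 of the other 9 lineage lists, 48 of them of the fibrocyte list, 32 of the glia list and 19 of the erythroid list. At 1000 UMIs Coch was found in 25% of members (17.8 to 33.4) and 28.8% of endothelial cells. Whether these UMIs came from free RNA or from doublets was not tested.

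The members hold only a part of the B stage RNA of the library. Of 1803 Igll1 UMIs in the kept P14 cells, 335 (18.6%) lay in members, 515 (28.6%) in the 69 cells under the level limit, 478 (26.5%) in cells with 1 rule UMI and 475 (26.3%) in cells with none. Of 954 Vpreb2 UMIs 103 (10.8%) lay in members. Vpreb3 and Rag1 lay more in the members, with 101 of 237 (42.6%) and 57 of 162 (35.2%). In the 69 cells under the limit Igll1 stood at 1191 CPM, close to the 1002 CPM of the members, while Rag1 stood at 20.8 CPM against 171 CPM and Vpreb3 at 41.6 CPM against 302 CPM. Vpreb2 and Vpreb1 went the other way, at 557 CPM against 308 CPM and at 294 CPM against 144 CPM. Of those 69 cells 94.2% were dividing, and their Rag1 level was also under the 81.2 CPM of the dividing members.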

How the data were processed

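The members and the gene lists were chosen with earlier results of these data known. The authors ran Cell Ranger (version 3.1.0 in the matrix header) against rn6 and deposited raw UMI counts for 32623 genes in every barcode. The submitters' processing notes also name bcl2fastq and Seurat 3.1.1. The P1, P7 and P14 matrices held 14068, 14501 and 6358 barcodes with 114285848, 101264868 and 12616390 UMIs, and 12779, 12581 and 5281 cells were kept. The labels state a capture of 5000 cells.

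Levels are UMIs summed over cells per 1000000 UMIs of those cells (CPM), with exact Poisson intervals. Shares have exact Clopper-Pearson intervals. Where a sum was 0, 3 counts were taken as its upper limit. Log2 ratios of genes, with their 2-fold counts and medians, had 10 CPM added to both sides, over genes with at least 20 UMIs. Plain ratios of dividing to other members, and their log2 values under other choices, had none added, and the main ones carry an exact conditional interval. Differences were not tested, because a stage is 1 library and its cells are no replicates of it. Lists of 27 kinds named 240 genes, of which 220 are listed in the matrix by symbol. Cells of another lineage were those with 2 or more UMIs of its list at 8 or more per 10000. Thinning used a fixed seed. Genes named are those of the lists, the 20 with the largest ratio to other P14 cells and the 5 most abundant among genes found in 10% of members, and the 10 at either end between dividing and other members. Others are said to be chosen later. The gene ratio was tested on simulated data. Python 3.11.15, numpy 2.4.6, scipy 1.17.1, pandas 2.3.3 and matplotlib 3.10.9 were used. Gene positions in rn6 were not used here, and promoter windows came from RefSeq GRCr8.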

Additional observations from a re-analysis of the deposited data

How the results depend on the processing

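No paired analysis was possible because each stage has 1 library. Each share or level was recomputed with 1 choice changed, and the cause of a change was not tested. The share of kept P14 cells (2.86%) moved with every change to the floors of the rule. It was 1.48% (78 cells) at 16 rule UMIs per 10000, 1.95% (103 cells) at 3 rule UMIs, 3.35% (207 cells) with more than 200 genes, 1.23% (65 cells) without members that met another lineage's marker limit, 1.52% after thinning first and, as an alternative chosen after seeing the data, 4.17% (220 cells) with no level floor. A mitochondrial limit of 10% (149 cells) and a rule without Ms4a1 (151 cells) left it within its interval. The dividing share (64.1%) was 45.5% at 16 per 10000, 75.5% without members that met another lineage's limit and 41.1% after thinning to 500 UMIs. With no level floor it was 69.5%, within its interval. The precursor list (2448 CPM) stood at 2993 CPM at 16 per 10000, 2248 CPM at 3 rule UMIs and 2812 CPM as a mean over members. The mature list (2478 CPM) stood at 2657 CPM at 16 per 10000, 2710 CPM as a mean over members, 1839 CPM with no level floor and 120 CPM without Ighm.

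The log2 ratio of Rag1 and Rag2 in dividing to other members (-1.67) ranged from -2.09 to -1.28 over classes made after thinning, no level floor and removal of members with another lineage's markers, all chosen after seeing the data. The surrogate light chain ratio (-0.59) was -0.21 with no level floor and -1.51 with that removal. The Vpreb3 ratio (-1.51, nothing added) was -2.37 with no level floor. The Vpreb2 ratio (-1.46) was -0.84 with no level floor and -2.13 with that removal, and the Dntt ratio (-2.22) was -4.10 with that removal. Ighm (0.03) took both signs, at 0.47 after thinning, -0.34 with no level floor and -0.20 with that removal. Of 220 list genes, 152 were past 2-fold against the other P14 cells, and 0 of them changed sign against only the P14 cells with no rule UMI. Against those cells the log2 ratio grew from 2.86 to 4.18 for Igll1 and from 3.77 to 5.04 for Ighm. The median over all genes (-0.24) was -0.39 with 1 CPM and -0.07 with 50 CPM added, and 105 list genes stood 2-fold or more higher, against 115 and 81. This count was 110 without mitochondrial, ribosomal protein and haemoglobin genes and 103 with the rule genes left out, a choice made after seeing the data. Depth limits genes with few UMIs, since 1 UMI over the members is 2.99 CPM and a count of 0 allows up to 8.98 CPM.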

Other observations

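A few genes outside B cell biology also stood out in the members. Cd3g, a chain of the T cell receptor complex, had 57 UMIs in 45 of the 151 members, 171 CPM (129 to 221) against 22.7 CPM in the other kept P14 cells. Its partners were near the floor, with Cd3e at 0 and Cd3d at 3 UMIs (8.98 CPM against 1.77). Cd2, Cd4, Cd8a, Klrb1 and Gzmb were at 0. The other kept P14 cells held at most 18 UMIs of each gene at 0, so these zeros say little about the members. Cd3g stood at 191 CPM (140 to 254) in dividing members and 114 CPM (54.5 to 209) in the others, and these intervals overlap. Lck, a kinase of lymphocytes, had 23 UMIs in 16 members, 68.8 CPM against 9.73 CPM. The T and NK cell list as a whole summed to 263 CPM against 73.4 CPM, and 10 members met its marker limit.

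The growth restraint genes Btg1 and Btg2 stood high in the members, at 820 CPM against 293 CPM and at 461 CPM against 135 CPM. Cd24, a surface protein of precursor B cells, stood at 1466 CPM against 228 CPM and was found in 118 members. Fcmr, the receptor for IgM, had 33 UMIs in 13 members, 98.7 CPM against 3.71 CPM. The locus AABR07034739 was lower in dividing members, with 174 UMIs in the 85 dividing members and 280 in the 66 others.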
